A study of Canis lupus familiaris with 8 samples.

Results

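The primary cilium genes described here are 41 genes for components of the cilium, taken from the count table by symbol and not by any measured value. All 41 were present among the 37952 genes of the deposited count table, 40 had enough counts to be tested, and 1, CC2D2A, had no count in any well. RNA came from monolayers of MDCK GII cells, an established dog kidney epithelial line, grown overnight on a collagen-coated silicone membrane before the experiment. The 4 control wells received no strain, and the 4 stretch wells were held under 18% equibiaxial static strain for 2 hours. Apart from the strain the groups shared the line and the medium, and no gene was altered. The labels describe the wells as technical quadruplicates placed at random over separate devices. The p-values therefore measure the spread between wells of 1 cell line.

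The primary cilium is a single non-motile antenna that a resting epithelial cell extends from its mother centriole. Its parts are made in the cell body and carried along the microtubule axoneme by intraflagellar transport: the IFT-B complex with the kinesin-2 motor moves cargo to the tip, and the IFT-A complex with the dynein-2 motor brings it back. The BBSome escorts membrane proteins, and the transition zone at the base works as a gate. In kidney tubules the cilium is known as a flow sensor, and inherited loss of many of these genes causes cystic kidney disease, nephronophthisis, Joubert syndrome or Bardet-Biedl syndrome. Cilia themselves were not counted in these data, and a change in the share of ciliated cells cannot be told apart from a change in RNA per cell.

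Total counts ran from 27047358 to 32478887 per well, and the 41 genes together took 0.0874 to 0.105% of them. Markers of kidney epithelium were present at unlike levels: all 9 listed were tested, but CDH16 had only 20 to 59 counts per well. CDH1 stood at 143 ± 5.73 CPM per kilobase of exon in control wells (CPM, counts scaled to the library total after TMM normalisation; mean ± SD, n = 4), and the renal factors PAX2 and PAX8 at 16.2 ± 1.90 and 46.7 ± 2.77. Of the 17 markers of fibroblasts, endothelium and immune cells, 12 were too low to test, with COL1A2, COL3A1, DCN, LUM, PTPRC and CD3E at 0 in all 8 wells, and the summed levels of the 3 lists ran from 1.33 to 6.13 CPM per well. Of 20 genes of motile cilia and multiciliated cells, 14 were too low to test and the master regulators MCIDAS and GMNC had no count, while the axonemal gene SPAG6 stood at 4.23 ± 0.331 CPM per kilobase.

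Levels of the cilium genes were modest and spread widely. The 40 tested members had a median of 4.80 CPM per kilobase of exon in control wells, against 8.59 for all 14571 tested genes, and 26 of the 40 lay under that median. The highest was ARL3, which encodes a small GTPase that releases lipidated cargo inside the cilium, and the lowest was BBS12, a chaperonin-like protein that helps to assemble the BBSome. Between these the level per kilobase differed 37.97-fold. ARL3 on chromosome 28 (15342783 to 15379100) read 31.9, 34.1, 30.1 and 29.4 CPM per kilobase in control replicates 1 to 4. BBS12 on chromosome 19 (18355826 to 18371915) read 0.887, 0.921, 0.803 and 0.692.

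Subunits of a shared complex were far from level with each other. Within the IFT-B complex, the anterograde train, the range ran from 2.55 ± 0.735 CPM per kilobase for IFT81 to 30.4 ± 4.01 for IFT46 (n = 4 control wells each), with IFT74 second at 21.9 ± 3.16. IFT74 and IFT81 encode partners that bind tubulin together, and their control wells did not overlap. IFT57 at 19.1 ± 0.245 and IFT20 at 18.7 ± 1.31 differed by less than the SD of IFT20. In the other complexes, BBS2 at 18.3 ± 1.83 led the BBSome, KIF3B at 9.28 ± 0.377 led the motors and the dynein-2 heavy chain DYNC2H1 stood at 3.06 ± 0.255. The 6 tested transition zone genes were uniformly low, from 1.61 ± 0.107 for CEP290 to 3.55 ± 0.780 for NPHP4. PKHD1, the gene of fibrocystin that is mutated in recessive polycystic kidney disease, was the second lowest member at 0.874 ± 0.0632. Exon length counts every annotated exon of a gene, so these levels assume that all of it is transcribed.

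**Figure D1:**
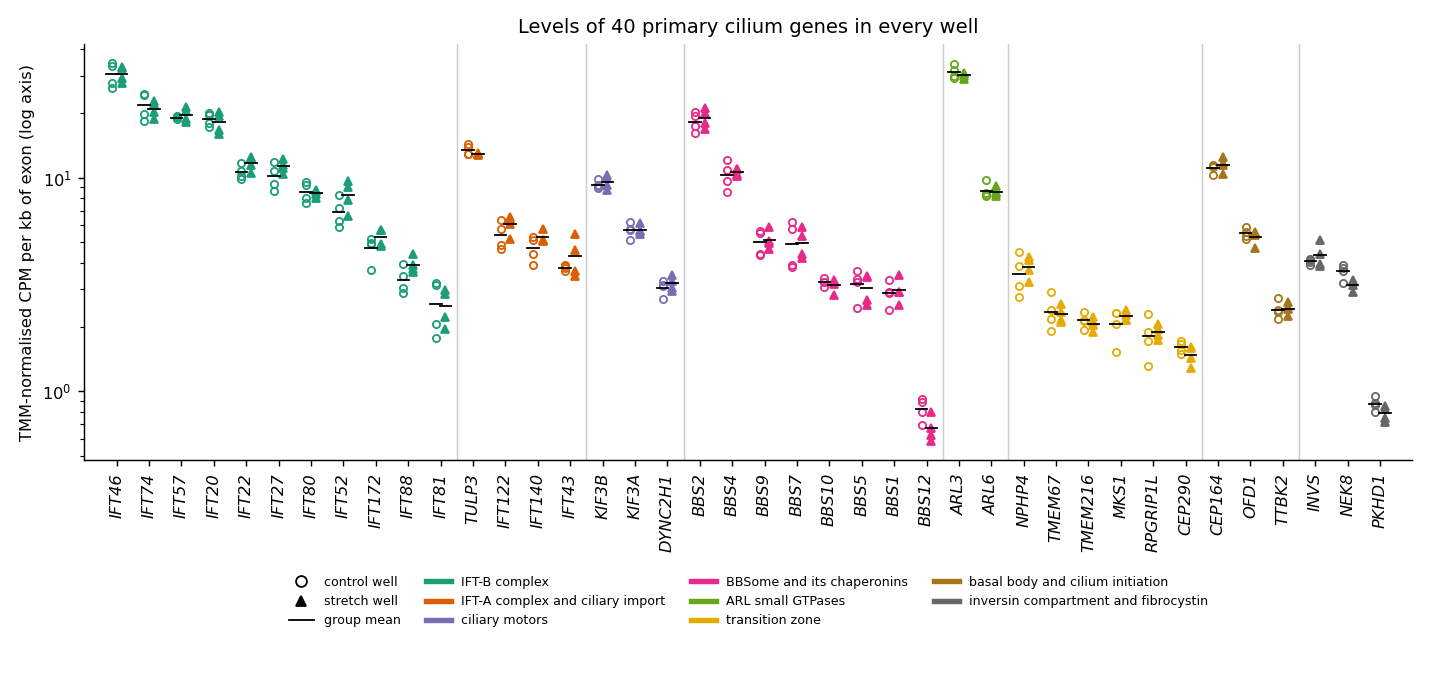
Level of each of the 40 tested primary cilium genes in every well, as TMM-normalised CPM per kilobase of exon on a log axis. Circles are the 4 control wells, triangles the 4 stretch wells, short lines the group means, and colours the role of each gene. The levels run from 0.826 for BBS12 to 31.4 for ARL3 in control wells, and in no gene do the control and stretch wells separate completely.

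CC2D2A, a transition zone scaffold mutated in Meckel and Joubert syndromes, was the exception. It lies on chromosome 3 (65262451 to 65398970, minus strand), and its 5484 exonic bases overlap no exon of another gene in the table. It had 0 counts among 237558216 over the 8 wells, which allows up to 0.0126 CPM (3 counts over all wells, for counting error only). FBXL5, the neighbouring gene on one side, had 423 to 677 counts per well. On the other side LOC479087 had 1211 to 1519 counts and C1QTNF7, further along, had 0 in every well. The other 40 members each had between 101 and 2884 counts in every well.

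After 2 hours of strain, none of the 40 tested members passed an adjusted p of 0.05 (edgeR quasi-likelihood test, Benjamini-Hochberg over 14571 genes), in a comparison that called 0% of all genes. When the replicate number was added as a block, the test called 0.7% of all genes and again 0 of the 40, whose smallest adjusted p was 0.211 for IFT52. DESeq2 called 0.275% of all genes and limma-voom 0%, and both called 0 members. At an unadjusted p under 0.05 there were 0 members in edgeR without the block (3.97% of all genes), 1 in DESeq2 (4.21%), 1 in limma-voom (4.1%) and 6 with the block (8.89%). Of those 6, IFT52, IFT88, IFT140 and IFT122 were higher (4.99% of all genes) and BBS12 and NEK8 lower (3.9%).

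The differences were small and bounded. Fitted log2 changes ran from -0.30 for BBS12 to 0.26 for IFT52. In 29 of the 40 the fitted level of the higher group was less than 10% above that of the lower. The 95% interval of the change lay inside 1.5-fold both ways for 39 of the 40 genes, which was so for 80.2% of all tested genes. BBS12 was the exception, with an interval from -0.62 to 0.01. All 40 lay inside 2-fold, as did 92.6% of all genes. With the block the interval lay inside 1.5-fold for 40 of 40, against 82.4% of all genes. In no member were all stretch wells above all control wells (1.3% of all genes) or all below (1.24%).

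The median log2 change over the 40 members was 0.03, beside -0.0032 for all tested genes, and 24 of the 40 were fitted higher after stretch (48.2% of all genes). The sign of this median rested on single wells. Without control replicate 3 it was -0.03, and without control replicate 4 it was -0.0063. In the blocked fit it was -0.0092 without pair 3 and -0.0021 without pair 4.

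**Figure D2:**
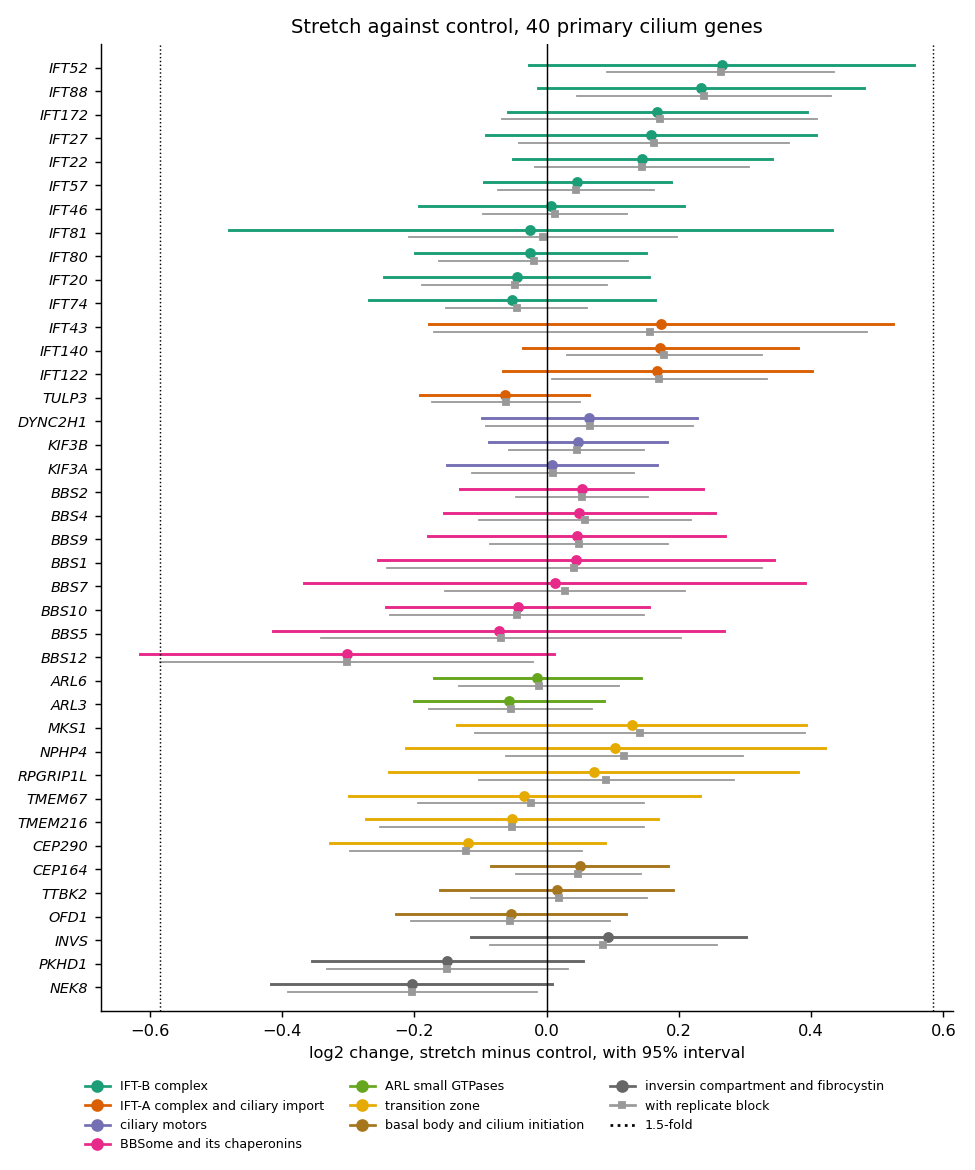
Log2 change after stretch with its 95% interval for the 40 tested genes, ordered by role. Coloured circles are the fit without the block, grey squares the blocked fit, and dotted lines mark 1.5-fold. Every interval without the block crosses 0, and BBS12 alone extends past the 1.5-fold line.

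Among the members, the genes of intraflagellar transport held the highest fitted values. By complex, 7 of the 11 IFT-B members were fitted higher (48.2% of all genes), with a median log2 change of 0.05. Of the 4 members of IFT-A and ciliary import, 3 were higher, with a median of 0.17. Over the 14 genes whose symbol begins with IFT, 10 were higher and the median was 0.15, with 0.06 in replicates 1 and 2 alone and 0.17 in replicates 3 and 4 alone. IFT88, whose loss in the mouse kidney gives short cilia and cysts, lies on chromosome 25 (17493013 to 17628598). Its control wells held 12.997, 11.4, 9.48 and 10.04 CPM and its stretch wells 14.5, 11.9, 12.9 and 12.3, in replicates 1 to 4. Each stretch well was above the control well of its number, but control replicate 1 was above 3 of the 4 stretch wells. The log2 change was 0.23 ± 0.11 (SE), with an interval from -0.01 to 0.48 (edgeR, adjusted p = 0.999, and 0.391 with the block).

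IFT52, a core IFT-B subunit on chromosome 24 (31919264 to 31958333), had 14.5, 12.6, 10.3 and 11.01 CPM in control wells and 16.9, 15.8, 11.6 and 13.8 in stretch wells. All 4 pairs were higher after stretch, and the groups overlapped: in each group replicates 1 and 2 exceeded replicates 3 and 4. Its change was 0.26 ± 0.13, with an interval from -0.03 to 0.56 (edgeR, adjusted p = 0.999, and 0.211 with the block). IFT22 and IFT27, small GTPases of the same complex, were also higher in 4 of 4 pairs, by 0.14 and 0.16 on the log2 scale. Leaving out 1 well took these as low as 0.11 and 0.09. IFT27 was at 0.07 within replicates 1 and 2 and at 0.26 within replicates 3 and 4.

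The most abundant IFT-B genes did not share this. IFT46 on chromosome 5 (15203734 to 15222615) had 51.9, 53.9, 43.3 and 41.1 CPM in control and 50.9, 51.4, 43.2 and 45.7 in stretch wells. IFT74 on chromosome 11 (45397519 to 45482097) had 65.5, 65.3, 49.0 and 53.2 CPM in control and 58.9, 61.1, 50.3 and 54.3 in stretch wells. In both genes the wells separated by replicate number, not by strain. The log2 changes were 0.0073 (interval -0.19 to 0.21) and -0.05 (-0.27 to 0.16).

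In the IFT-A group, which returns cargo to the base, IFT140 had the smallest p. It lies on chromosome 6 (39702970 to 39783289) and read 25.2, 25.8, 19.2 and 21.7 CPM in control and 28.4, 25.2, 24.9 and 25.01 in stretch wells. Stretch was higher in 3 of 4 pairs, by 0.17 ± 0.10 on the log2 scale (interval -0.04 to 0.38), and the widest gap was in pair 3. IFT122 was higher in 4 of 4 pairs by 0.17 ± 0.11. Without control replicate 3 the changes were 0.096 for IFT140 and 0.10 for IFT122. For IFT122 the change was 0.25 without control replicate 1. IFT43 had the same change of 0.17 from another pattern: the change was 0.44 in replicates 1 and 2 taken alone and -0.13 in the other pair of replicates. TULP3, the adaptor that loads G protein-coupled receptors onto IFT-A, was lower in 4 of 4 pairs by a fitted log2 change of only -0.06 (interval -0.19 to 0.06).

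The motors drive the trains in both directions. DYNC2H1, on chromosome 5 (28528813 to 28868231), had 47.3, 49.6, 40.7 and 47.2 CPM in control and 44.5, 46.1, 52.8 and 49.8 in stretch wells. Its replicates 1 and 2 were lower after stretch and its replicates 3 and 4 higher, and the log2 change was 0.06 ± 0.075, made of -0.098 within replicates 1 and 2 and 0.23 within replicates 3 and 4. For the kinesin-2 subunits KIF3A and KIF3B it was 0.0082 (interval -0.15 to 0.17) and 0.05 (-0.09 to 0.18).

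BBS12 had the lowest fitted value of all members. Control wells held 6.02, 6.25, 5.45 and 4.70 CPM and stretch wells 5.43, 3.95, 4.56 and 4.22. It was lower in 4 of 4 pairs, yet stretch replicate 1 exceeded control replicate 4, and the log2 change of -0.30 ± 0.14 did not pass (edgeR, adjusted p = 0.999, and 0.507 with the block). It stood on 107 to 193 counts per well. The 6 members that are subunits of the BBSome, BBS1, BBS2, BBS4, BBS5, BBS7 and BBS9, lay between -0.07 and 0.05, and BBS10, the other chaperonin-like gene, stood at -0.04 (interval -0.24 to 0.16). For BBS1, 36.5% of its exonic bases overlap an exon on the opposite strand, and BBS7 shares 5.11% of its exonic bases with the cyclin gene CCNA2 on the same strand, so their counts are uncertain.

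ARL3 had 33.3, 35.5, 31.3 and 30.7 CPM in control and 30.3, 32.03, 31.1 and 32.4 in stretch wells, a change of -0.06 (interval -0.20 to 0.09). ARL6, the GTPase that recruits the BBSome to membranes, stood at -0.01 (-0.17 to 0.14). Neither differed beyond the spread between wells.

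At the transition zone, CEP290 had the smallest p. The gene, on chromosome 15 (29492991 to 29579893), encodes a long protein linking the axoneme to the ciliary membrane. It read 16.2, 16.8, 14.5 and 15.2 CPM in control and 13.98, 15.7, 15.5 and 12.5 in stretch wells, a log2 change of -0.12 ± 0.10 (interval -0.33 to 0.09), and of -0.052 without stretch replicate 4. Among the others, MKS1 at 0.13, NPHP4 at 0.10 and RPGRIP1L at 0.07 were fitted higher, and TMEM67 at -0.03 and TMEM216 at -0.05 lower, all with intervals that cross 0. Leaving out 1 well took MKS1 as low as 0.011, NPHP4 to 0.0003 and RPGRIP1L to -0.05. It took TMEM67 as high as 0.09 and TMEM216 to -0.0036. CEP290, MKS1, RPGRIP1L and TMEM216 overlap exons on the opposite strand.

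CEP164, the distal appendage protein that docks the mother centriole and starts cilium growth, lies on chromosome 5 (16251809 to 16315281). It had 87.9, 89.3, 80.6 and 88.8 CPM in control and 97.2, 91.1, 81.0 and 89.5 in stretch wells. Every pair was higher after stretch, by little: the change was 0.05 ± 0.06 (interval -0.08 to 0.18). It was 0.017 without control replicate 3, 0.012 without stretch replicate 1 and 0.097 without stretch replicate 3. TTBK2, the kinase recruited by CEP164, stood at 0.02 and the centriolar protein gene OFD1 at -0.05.

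The remaining group, 2 components of the inversin compartment of the proximal cilium and fibrocystin, contained 2 of the 5 members that were lower in every pair. NEK8, a kinase gene on chromosome 9 (42895059 to 42904934) mutated in nephronophthisis, had 12.04, 11.4, 9.92 and 11.7 CPM in control and 10.3, 9.75, 9.02 and 10.02 in stretch wells. Control replicate 3 was inside the stretch range and the other control wells lay above it. The log2 change was -0.20 ± 0.10 (edgeR, adjusted p = 0.999, and 0.505 with the block). PKHD1, on chromosome 12 (19530405 to 20000289), had 14.7, 13.5, 12.3 and 13.3 CPM in control and 11.5, 13.2, 11.1 and 12.7 in stretch wells, a log2 change of -0.15 ± 0.09 (interval -0.35 to 0.05). INVS, which encodes inversin, went the other way at 0.09 (interval -0.12 to 0.30). Its change was as low as 0.0059 when 1 well was left out, with 0.22 within replicates 1 and 2 and -0.04 within replicates 3 and 4.

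Across all members, 7 of 40 were higher in 4 of 4 pairs (8.45% of all genes) and 5 of 40 were lower in 4 of 4 (7.84%). The former were IFT22, IFT27, IFT52, IFT88, IFT122, BBS2 and CEP164, and the latter TULP3, BBS12, TMEM216, NEK8 and PKHD1. BBS2 shows how small such a shift can be: its log2 change was 0.05.

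The cilium genes also differed by replicate number. Replicates 1 and 2 of both groups, as against replicates 3 and 4, are a division that was already known from the whole data set, so its values are given as a description with no test. The mean of wells numbered 1 and 2 was higher in 33 of the 40 members (51.5% of all genes), with a median log2 difference of 0.13, beside 0.0053 for all tested genes. In 11 of 40 the 4 wells numbered 1 and 2 all exceeded the 4 others (9.93% of all genes), and in 0 of 40 they all lay below (10.4%). The labels attach no date, device or batch to these numbers.

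IFT81 showed the widest separation. Its wells numbered 1 and 2 held 12.6 and 12.9 CPM in control and 11.9 and 11.5 in stretch, and its wells numbered 3 and 4 held 7.11 and 8.30 in control and 7.85 and 8.97 in stretch, a log2 difference of 0.60. BBS7 followed at 0.50, NPHP4 at 0.39 and IFT52 at 0.35. The 11 fully separated genes were IFT20, IFT46, IFT74, IFT81, IFT140, BBS2, BBS7, BBS9, NPHP4, RPGRIP1L and TMEM67, drawn from IFT-B, IFT-A, the BBSome and the transition zone. None came from the motors, the ARL GTPases, the basal body genes or the inversin group. The median difference was 0.11 for the motors, 0.08 for the ARL GTPases, 0.096 for the inversin group and -0.03 for the basal body genes.

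Control replicate 3 stood lowest. It was the lowest control well in 24 of 40 members (28.6% of all genes), and its median deviation from each gene's mean over the 8 wells was -0.13 on the log2 scale, against 0.0046 over all genes. In IFT172, the largest IFT-B subunit, it held 20.3 CPM while the other control wells held 26.9 to 28.2, and in MKS1 it held 10.6 against 14.3 to 16.2. Control replicates 1 and 2 lay above by medians of 0.08 and 0.09, control replicate 4 below by -0.07, and the stretch wells at 0.09, 0.05, -0.06 and -0.02 in the order of their numbers. The total of control replicate 3, 29950328 counts, was inside the range of the other wells. The correlation across genes between its deviations and log2 exon length was 0.0486, so length and level moved little together there.

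**Figure D3:**
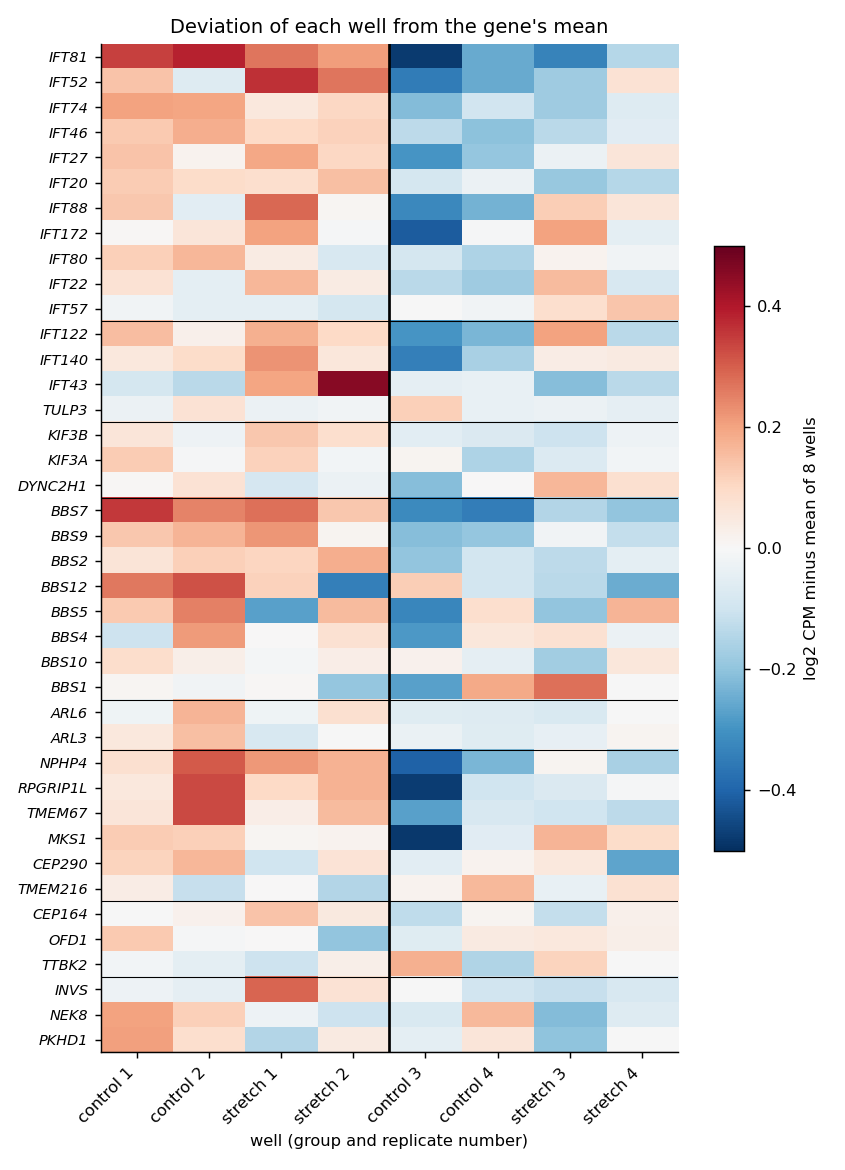
Deviation of each well from the gene's mean over the 8 wells, in log2 CPM, for the 40 tested genes ordered by role. The heavy line separates wells numbered 1 and 2 from wells numbered 3 and 4. The IFT-B, BBSome and transition zone genes are mostly above their mean on the left and below it on the right, most of all in control replicate 3.

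The fitted stretch change depended on the set of replicates in which it was taken. Within replicates 1 and 2 (2 wells against 2), 13 of 40 members were fitted higher (50.8% of all genes) and the median log2 change was -0.04. Within replicates 3 and 4, 30 of 40 were fitted higher (50.9%) and the median was 0.07. The change had the same sign in both sets for 17 of the 40 genes, and the difference between the sets was not tested. IFT52 gave nearly equal values, 0.28 and 0.26, while IFT88 gave 0.12 and 0.38, and IFT140 gave 0.07 and 0.29. BBS12 was at -0.38 and -0.20, NEK8 at -0.22 and -0.18, and PKHD1 at -0.19 and -0.10. MKS1, at -0.11 and 0.39, differed most in the direction opposite to IFT43.

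**Figure D4:**
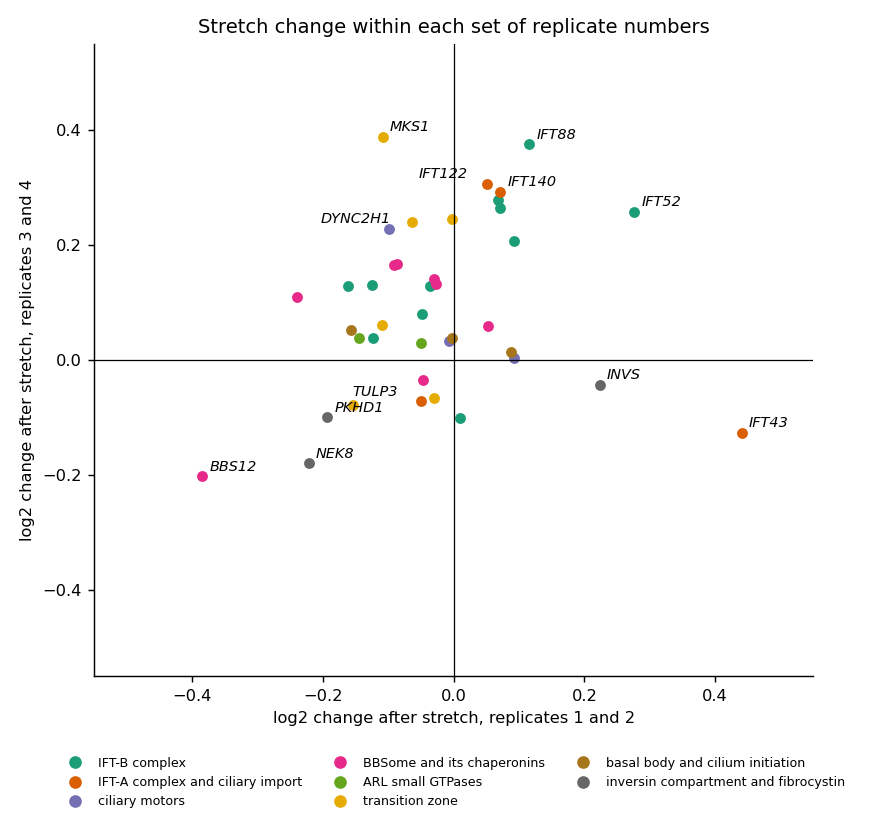
Log2 change after stretch within replicates 1 and 2 (horizontal axis) and within replicates 3 and 4 (vertical axis), 1 point per tested gene, coloured by role. Of the 40 points, 30 lie above the horizontal zero line and 13 to the right of the vertical one, with IFT52 and IFT88 in the upper right and BBS12 and NEK8 in the lower left.

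Other genes of the ciliary pathway, taken from 10 lists, were taken next. Of 157 genes in the table, 129 were tested and 0 passed an adjusted p of 0.05 without or with the block. At an unadjusted p under 0.05 without the block, 4 were higher and 7 lower (edgeR; 2.22% and 1.76% of all genes). With the block the counts were 5 and 9, where 4.99% and 3.9% of all genes were called. The median log2 change was -0.0084. The list of other IFT and motor subunits had a median of 0.0034 over 16 genes, with none at an unadjusted p under 0.05, and its smallest p belonged to the kinesin KIF17 at 0.50 ± 0.31 on 16 to 46 counts and to TTC30B at -0.17 ± 0.10. Among the 11 other BBSome and cargo genes, LZTFL1 stood at 0.13 ± 0.12 and RP2, which works with ARL3, at -0.06 ± 0.08.

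In the list of other transition zone genes, 18 were tested and the median log2 change was 0.02. AHI1, a Joubert syndrome gene, held 19.9, 23.8, 19.6 and 19.3 CPM in control and 23.01, 25.2, 24.8 and 21.4 in stretch wells. All 4 pairs were higher and the groups overlapped, at a log2 change of 0.19 ± 0.09 (edgeR, adjusted p = 0.999; under the block it was 0.300). Of 23 other basal body genes, KIAA0586, known as TALPID3, was lower in 4 of 4 pairs at -0.21 ± 0.08 (edgeR, adjusted p = 0.999, and 0.193 with the block). MAK, on 1 to 20 counts, was higher in 4 of 4 pairs without passing.

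Polycystins form a receptor and channel complex in the renal cilium. PKD1 held 48.4, 59.1, 72.5 and 70.5 CPM in control and 44.2, 55.01, 59.3 and 63.7 in stretch wells. It was lower in 4 of 4 pairs, at a log2 change of -0.17 ± 0.14 (edgeR, adjusted p = 0.999, and 0.168 with the block). Its wells numbered 1 and 2 all lay below its wells numbered 3 and 4, which is opposite to the members described above. PKD2 stood at 0.05 (interval -0.10 to 0.19), and its level of 6.45 ± 0.312 CPM per kilobase was above the 4.49 ± 0.7998 of PKD1. ADCY6, an adenylyl cyclase, stood at -0.06 ± 0.06.

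Hedgehog signalling, which runs through the cilium in many tissues, was only partly present. SMO stood at 20.4 ± 1.65 CPM per kilobase and PTCH1 at 3.74 ± 0.346, but the effectors GLI1, GLI2 and GLI3 had at most 12 counts in any well and were not tested. None of the 14 tested genes had an unadjusted p under 0.05, and the smallest were GAS1 at -0.56 ± 0.30 and DISP1 at -0.12 ± 0.08.

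Of the 13 tested genes listed under cilium disassembly, 4 had an unadjusted p under 0.05 in the unblocked fit, all lower (1.76% of all genes). They were PLK1 at -0.33 ± 0.09 (edgeR, adjusted p = 0.813), KIF18B at -0.30 ± 0.10, AURKA at -0.21 ± 0.08 and NEK2 at -0.18 ± 0.07. All 4 are mitotic genes, and lower values of mitotic genes in these wells were already known. The lowest adjusted p was 0.0771, for KIF18B with the block. AURKA is the kinase that triggers ciliary resorption, and AURKA and PLK1 overlap exons on the opposite strand over 7.73% and 2.14% of their own. None of the 12 tested genes of axonemal tubulin modification had an unadjusted p under 0.05, and the smallest were CCSAP at -0.11 ± 0.09 and AGBL2 at 0.26 ± 0.23.

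RFX factors drive many ciliary genes through the X-box, and here RFX3 at 3.85 ± 0.122 and RFX5 at 10.2 ± 0.492 CPM per kilobase were above RFX1 at 1.5002 ± 0.145 and RFX2 at 0.260 ± 0.117. RFX7 stood at 3.42 ± 0.390 and RFX4 had at most 3 counts in a well. RFX1 held 6.57, 6.70, 7.75 and 7.93 CPM in control and 5.56, 5.69, 5.80 and 5.62 in stretch wells. Every stretch well was below every control well, which was so for 1.24% of all genes. The change of RFX1 was -0.35 ± 0.11 (edgeR, adjusted p = 0.973, and 0.248 with the block). RFX5 was lower in 4 of 4 pairs at -0.18 ± 0.08 (adjusted p = 0.999), while RFX3 stood at 0.04 (interval -0.12 to 0.20). Opposite-strand exons overlap 12.4% of RFX1 and 25.5% of RFX5. FOXJ1, the driver of motile cilia, had only 14 to 57 counts per well, and its change was -0.79 ± 0.37. SPAG6, an axonemal gene, was the member of the motile list with the smallest p, at 0.27 ± 0.09 (edgeR, adjusted p = 0.999).

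**Figure D5:**
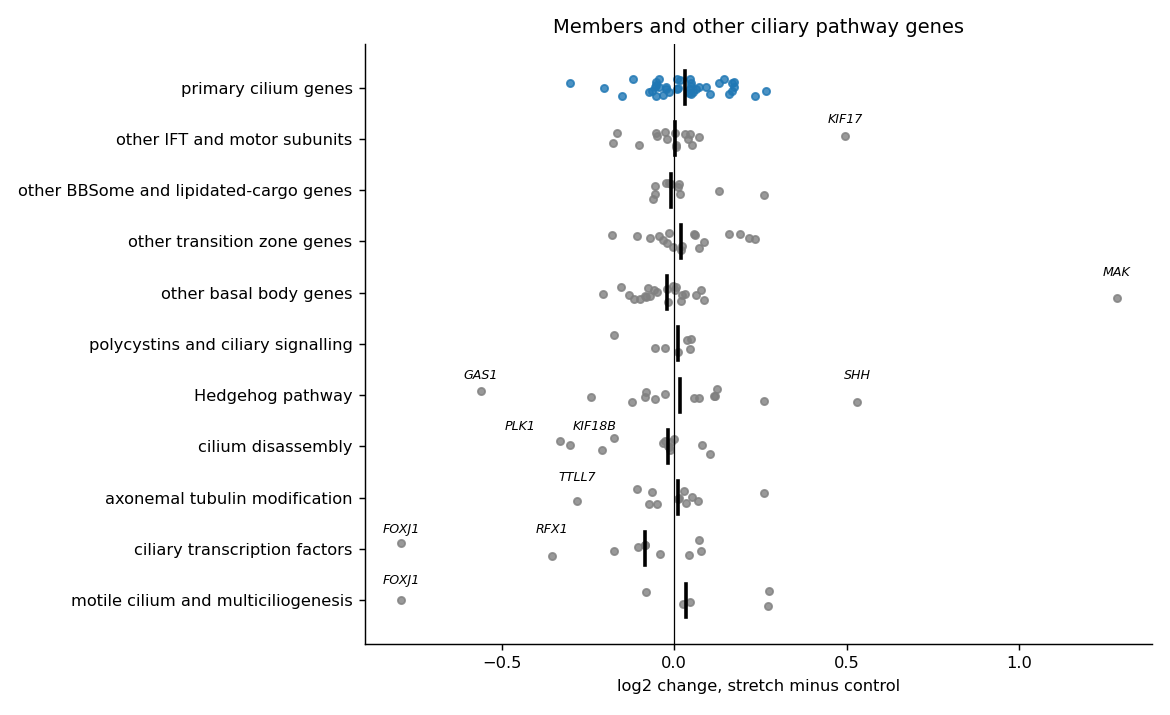
Log2 change after stretch for the 40 tested primary cilium genes (blue) and for the tested genes of 10 other ciliary lists (grey), 1 point per gene, with the list median as a bar; FOXJ1 is in 2 lists. The medians lie between -0.09 and 0.03, and the named points far from 0, such as MAK, FOXJ1 and GAS1, include genes with few counts.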

How the data were processed

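The authors deposited 1 table of raw exon counts for every gene and library. Per the submitters' processing notes, FastQC 0.11.8, Trim Galore 0.6.5, STAR 2.7.3a and featureCounts of Subread were used. Libraries were strand-specific and polyA-selected, per the labels' protocols. The strand setting of the counting and the handling of multi-mapped reads are not given in the sources used here. Overlapping genes are therefore uncertain: 12 of the 41 members overlap exons on the opposite strand and 1 on the same strand. The 8 count columns were matched by library name, and 0 columns belonged to no sample. The authors' table also gives exon length in bases as another column, used for levels per kilobase. Coordinates are those of the table, whose build it does not name. All 41 members had identical positions in the RefSeq gene table of UU_Cfam_GSD_1.0.

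Counts were tested in R 4.3.3 with edgeR 4.0.16 (TMM factors, filterByExpr with a minimum count of 10 and total of 15, glmQLFit with robust estimation, two-sided glmQLFTest, Benjamini-Hochberg), fitted on 14571 genes. SE was the unshrunk log2 coefficient divided by the root of F, and 95% intervals used the total degrees of freedom. Between wells of 1 group, chi-square divided by its degrees of freedom was 5.56 to 26.8 (genes of 50 counts or more), so all 8 were kept as separate samples. The labels do not say that equal replicate numbers share a device, but same-numbered wells deviated together (correlations 0.108 to 0.328). The fit with the replicate block therefore stands beside the main one. Control and stretch wells of unlike number, within replicates 1 and 2 or within replicates 3 and 4, correlated at 0.070 to 0.243. The link was thus not particular to equal numbers. Script tests used simulated counts. DESeq2 1.42.0 and limma 3.58.1 were alternatives. Figures used matplotlib 3.10.9.

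The members and lists were chosen with earlier results of these data known. Well values are given for the member with the smallest p in each of 8 roles, the 3 highest and 3 lowest by level, and any past the threshold. In the pathway lists, the 2 genes with the smallest p and any past the threshold are named, with RFX factors, FOXJ1, PKD1 and PKD2. A result of the list of other transition zone genes is not reported here. IFT52, IFT81, IFT172, MKS1, NEK2, AURKA and the other genes named outside this rule were chosen after their values were seen.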

Additional observations from a re-analysis of the deposited data

Results flagged for a closer look

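In 4 of the 80 groups of 4 wells examined (40 genes in 2 groups), 1 well lay far from the other 3 by the ratio of its gap to the range, and with a 95% critical value about 4 come up by chance. For IFT172, control replicate 3 had 20.3 CPM against 26.9 to 28.2 in the other control wells. For IFT140, stretch replicate 1 had 28.4 CPM against 24.9 to 25.2. For ARL6, control replicate 2 had 33.2 CPM against 28.2 to 29.1. For CEP164, control replicate 3 had 80.6 CPM against 87.9 to 89.3.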

How the results depend on the processing

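The count of 0 members held in all 22 alternatives. Over the whole table the count of genes, 0 in the main fit, was 102 with the replicate block, 40 in DESeq2, 11 with no filter on low counts and 0 to 12 when 1 well was left out (12 without control replicate 3, 3 without stretch replicate 1). Among settings added after seeing the data, it was 58 with a block of 2 levels, 51 within replicates 1 and 2, 25 within replicates 3 and 4, and 43 to 186 with the block and 1 pair left out (43, 67, 186 and 74 without pairs 1 to 4). The replicate block changed no call of a member. The median log2 change of the members ran from -0.04 to 0.07 over the alternatives and its SD over the 4 pairs was 0.08. Leaving out single control wells moved the median level of 4.80 CPM per kilobase to between 4.56 and 5.10.

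The cause of the changes of sign was not tested. DYNC2H1 went to -0.098 within replicates 1 and 2 against 0.23 within replicates 3 and 4, and to -0.038 with the block and without pair 3. ARL3 went to 0.039 within replicates 3 and 4. IFT46 ran from -0.056 to 0.076 when 1 well was left out, and was -0.049 within replicates 1 and 2 and -0.033 with the block and without pair 4. IFT74 ran from -0.13 to 0.011 when 1 well was left out, and was 0.039 within replicates 3 and 4. IFT88, IFT52, IFT140, IFT122, BBS12, NEK8, PKHD1, CEP290 and CEP164 kept their sign in 22 of 22, though leaving out 1 well took IFT140 as low as 0.096, IFT122 to 0.10, CEP290 to -0.052 and CEP164 to 0.012. Genes with few counts set the limit of depth: the members had 101 counts or more in every well, while KIF17, MAK, FOXJ1 and RFX2 had at most 57.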

Other observations

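RFX2 followed the replicate numbers more widely than any member in these wells. It held 1.32 and 1.52 CPM in control replicates 1 and 2 and 0.643 and 0.622 in control replicates 3 and 4, and 1.79, 1.22, 0.514 and 0.372 CPM in the stretch wells in the order of their numbers, on 12 to 52 counts. Its log2 difference between the 2 sets was 1.35, beside 0.60 for IFT81. RFX3 lay at -0.12 on the same scale and RFX1 at -0.13. The other IFT and motor subunits, which are not among the 41 genes, were higher in wells numbered 1 and 2 in 15 of 16 cases, with a median of 0.17 and 6 of 16 fully separated (9.93% of all genes). For the other transition zone genes the count was 11 of 18 and the median 0.04, and for the Hedgehog list it was 5 of 14 and -0.05.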
